A study of Homo sapiens with 6 samples.

Results

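The genes described here encode the collagen alpha chains, the polypeptides that fold 3 at a time into the collagen triple helix. They were taken as every row of the expression table whose symbol has the form COL, a number, A and a number and whose transcripts are typed as protein coding, which gave 44 chains among 60612 genes. RNA was sequenced from HCT116, an established line of colorectal cancer cells, after removal of ribosomal RNA. All cells were treated for 2 days, either with the control siRNA si NC (3 samples) or with PLOD3 siRNA (3 samples). PLOD3 is an enzyme of the endoplasmic reticulum that hydroxylates lysines of collagen chains and adds sugars to them, and the series concerns its place in colorectal cancer. The labels give no other genotype, and which siRNA sequences were used is not given in the sources used here. The labels do not state whether the 3 samples of each group were separate cultures. Each p-value therefore measures spread between these samples alone, and that spread may be technical.

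A collagen chain is defined by a long repeat in which glycine recurs at each step of 3 residues, being the only residue small enough for the crowded centre of the triple helix. Proline and lysine residues between the glycines are hydroxylated, and some hydroxylysines receive sugars, before the chains leave the endoplasmic reticulum. Fibrillar chains build rope-like fibrils, type IV chains build the sheet of basement membranes, type VI chains build beaded filaments, and FACIT chains (fibril-associated collagens with interrupted triple helices) sit on other fibrils. In the gut, fibroblasts of the connective tissue make most fibrillar collagen, while epithelial cells contribute chains of the basement membrane beneath them.

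The glycine repeat can be read in the genes themselves, since every glycine codon starts with GG. It is shown for 4 of the chains described below, as 15 consecutive units from the longest repeat of each. All are spliced coding sequence from GENCODE 29 on the GRCh38 assembly, 5′ to 3′ in the direction of the transcript, and the capitals mark the glycine codon that opens each unit of 3 codons.
COL6A2: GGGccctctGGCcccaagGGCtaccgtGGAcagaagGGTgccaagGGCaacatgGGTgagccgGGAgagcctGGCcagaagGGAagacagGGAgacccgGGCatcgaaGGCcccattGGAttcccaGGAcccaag
COL18A1: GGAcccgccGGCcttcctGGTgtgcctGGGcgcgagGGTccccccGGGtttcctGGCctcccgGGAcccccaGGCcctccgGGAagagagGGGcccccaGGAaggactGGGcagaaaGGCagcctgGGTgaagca
COL12A1: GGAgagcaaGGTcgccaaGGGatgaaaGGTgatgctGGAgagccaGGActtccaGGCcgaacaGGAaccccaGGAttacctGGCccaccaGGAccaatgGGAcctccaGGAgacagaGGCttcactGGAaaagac
COL4A5: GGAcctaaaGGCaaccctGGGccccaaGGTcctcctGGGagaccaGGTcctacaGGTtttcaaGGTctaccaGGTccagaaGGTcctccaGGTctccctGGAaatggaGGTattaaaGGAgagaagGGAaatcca
The COL6A2 stretch spans chr21:46114038-46116053 on the plus strand and lies in exons 5 to 7 of 28, counted over all exons of the transcript. The COL18A1 stretch spans chr21:45480796-45482803 on the plus strand, in exons 12 to 14 of 41. The COL12A1 stretch spans chr6:75097289-75102605 on the minus strand, in exons 56 to 59 of 66. The COL4A5 stretch spans chrX:108668459-108677570 on the plus strand, in exons 41 to 44 of 53. The introns between these exons are left out, and each stretch is 135 bases long.

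Every one of the 44 chains had such a repeat in its longest coding transcript, counted as runs of at least 5 units with a glycine codon at each step of 3 codons. The longest unbroken run held 23 to 343 units, with a median of 60.5 over the chains. COL6A1 and COL6A2, which pair in type VI collagen, both had a longest run of 87 units, COL1A1 had 338, and COL12A1, a long FACIT protein built mostly of other domains, had 32. Runs made up 72.7% of the codons of COL1A1, 75.9% of those of COL9A3 and 7.64% of those of COL12A1. The runs were richer in G and C than the remaining coding sequence in 43 of 44 chains, the exception being COL23A1, with a median of 63.2% inside the runs and 56.8% outside.

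PLOD3, the target of the siRNA, had an FPKM (a fragment count scaled by transcript length and library depth) of 6.40, 7.16 and 6.22 in si NC replicates 1 to 3 and of 3.44, 3.40 and 4.05 in PLOD3 siRNA replicates 1 to 3. The groups did not overlap, and the log2 fold change was -0.85 ± 0.107 (SE, edgeR quasi-likelihood test, Benjamini-Hochberg adjusted p = 0.0035). Estimated counts summed to between 55416555 and 76802428 per sample, where about 4 units stand for 1 read pair. Of 7 epithelial markers, summed FPKM lay between 680.4 and 738.2 in si NC and between 577.3 and 656.5 in PLOD3 siRNA. Of the 6 tested, 3 were lower (KRT18, KRT19 and CDH1), beside 19.3% of all 12000 genes tested. VIL1, the marker not tested, had a mean FPKM of 0.00909 in si NC and 0 in PLOD3 siRNA. With a correction for GC content CDH1 alone was called (adjusted p = 0.034), and KRT19 had a log2 fold change of 0.08 (adjusted p = 0.403). Of 9 fibroblast markers, 4 (DCN, LUM, FAP and PDPN) had no reads, the sum lay between 3.60 and 4.59 in si NC and between 3.06 and 3.54 in PLOD3 siRNA, and ACTA2 alone of the 2 tested was lower. The sums lay between 0.0940 and 0.230 against 0.0907 and 0.119 for 5 endothelial markers, with CDH5 at 0, and between 0.773 and 1.65 against 1.65 and 1.76 for 6 leukocyte markers, with PTPRC and CD3E at 0. All 5 short noncoding RNAs examined (RN7SL1, RN7SL2, RN7SK, RPPH1 and RMRP) were higher in PLOD3 siRNA, beside 16.2% of the 12000 genes. Their summed FPKM was 6.52 to 7.99 in si NC and 177.1 to 225.2 in PLOD3 siRNA. The part of these marker and RNA differences in the collagen values was not tested. Fewer cells of a type and less RNA per cell cannot be told apart in such bulk samples.

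Most collagen genes were silent or nearly so in HCT116. With a mean FPKM of 1 or more across the 6 samples as the limit, 7 of the 44 chains were expressed: COL6A1, COL6A2, COL12A1, COL18A1, COL9A3, COL4A5 and COL1A1. A further 13 chains had a mean FPKM from 0.1 to under 1, 14 had reads but stayed under 0.1, and 10 had a count of 0 in every sample. COL1A1, at a mean FPKM of 2.00, was the lowest chain inside the limit, and COL4A4, at 0.994, lay just outside it. All 7 expressed chains were at or above the limit in both groups.

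The chains without reads were COL2A1, COL6A5, COL8A1, COL8A2, COL9A1, COL10A1, COL11A1, COL19A1, COL22A1 and COL23A1. They include the main chain of cartilage fibrils (COL2A1) and all 3 hexagonal network chains (COL8A1, COL8A2 and COL10A1), and they were not detectable at this depth. The chains with traces of reads were COL1A2, COL4A1, COL4A2, COL5A1, COL5A3, COL6A3, COL6A6, COL14A1, COL15A1, COL20A1, COL21A1, COL24A1, COL25A1 and COL28A1. Of 11 fibrillar chains, 1 was expressed, 4 lay between 0.1 and 1, 4 had traces and 2 had no reads. Of 10 FACIT chains, the corresponding numbers were 2, 2, 3 and 3. No transmembrane chain reached the limit, with 2 of 4 between 0.1 and 1.

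Several chains were present without the chain they usually fold with. COL1A1 makes type I collagen with COL1A2, whose counts were 0, 23 and 6 in si NC against 0, 4 and 4 in PLOD3 siRNA. COL6A1 and COL6A2 assemble with a further chain such as COL6A3, whose counts were 8, 54 and 80 in si NC against 8, 8 and 12 in PLOD3 siRNA, with 2675 to 10789 for COL6A1 per sample. COL4A1 and COL4A2, the chains of most basement membranes, had at most 18 and 8 counts in any sample. The partner chains were thus near the limit of detection in both groups, and their groups overlapped.

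Of the 7 expressed chains, 6 were lower after PLOD3 siRNA and 0 were higher, and COL12A1 missed the threshold. The test was edgeR's quasi-likelihood test on the estimated counts of the 12000 genes at or above that limit, two-sided, at a Benjamini-Hochberg adjusted p of 0.05. Among all 12000 genes 19.3% were lower and 16.2% higher by the same rule. The median log2 fold change of the 7 chains was -0.88, against 0.0034 over all genes tested. In the FPKM values themselves, 6 of the 7 expressed and 7 of the 13 low chains had every PLOD3 siRNA sample below every si NC sample, against 27.5% of genes at the limit of 1 and 22.6% at the limit of 0.1. Of the 7 low chains, COL3A1 reached 0.1 only through si NC, and of the 11 low chains at or above it in both groups 6 were apart in this way. With a correction for the GC content of the transcripts, 5 of the 7 were lower and 0 higher, against 14.5% and 11.5% of all genes, and their median was -0.53.

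The type VI chains COL6A1 and COL6A2 had the highest FPKM of the collagen chains in si NC. COL6A1 (chr21:45981769-46005050, plus strand) and COL6A2 (chr21:46098112-46132848, plus strand) encode chains of the beaded filaments that surround cells and link basement membranes to the matrix. COL6A1 had an FPKM of 22.4, 22.5 and 22.7 in si NC replicates 1 to 3 and of 8.35, 7.68 and 10.2 in PLOD3 siRNA replicates 1 to 3. The 3 si NC samples were almost level, and all 3 PLOD3 siRNA samples lay far below them. Its log2 fold change was -1.37 ± 0.1 (edgeR, SE, adjusted p = 0.00177), and -1.03 (adjusted p = 0.00281) in the fit corrected for GC content.

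COL6A2 had an FPKM of 16.9, 17.2 and 17.3 in si NC and of 10.0, 8.06 and 9.79 in PLOD3 siRNA, so the groups were again apart. The mean fell from 17.1 ± 0.233 to 9.29 ± 1.07 (SD, n = 3), a log2 fold change of -0.88 ± 0.0845 (edgeR, SE, adjusted p = 0.00242). With the GC correction it was -0.49 (adjusted p = 0.00866).

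The balance of the pair differed between groups. The FPKM of COL6A1 was 1.33, 1.31 and 1.31 times that of COL6A2 in si NC and 0.833, 0.954 and 1.04 times that of COL6A2 in PLOD3 siRNA. All 3 PLOD3 siRNA ratios lay below all 3 si NC ratios, with an exact permutation p of 0.1 (two-sided), the smallest that 3 against 3 samples allow. Together the 2 genes held 54.1% ± 1.13 of the summed chain FPKM in si NC and 45.2% ± 1.42 in PLOD3 siRNA (SD, n = 3).

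The summed FPKM of all 44 chains was 74.0, 71.8 and 74.2 in si NC against 42.1, 34.0 and 43.6 in PLOD3 siRNA. The groups did not overlap (exact permutation p = 0.1), and the PLOD3 siRNA mean of 39.9 ± 5.14 was 54.4% of the si NC mean of 73.3 ± 1.35 (SD, n = 3). Without COL6A1 and COL6A2 the sum was 33.6 in si NC against 21.9 in PLOD3 siRNA, or 65.1%. Collagen chains were a small part of the transcriptome in both groups, at 0.0185% and 0.0108% of all FPKM.

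**Figure D1:**
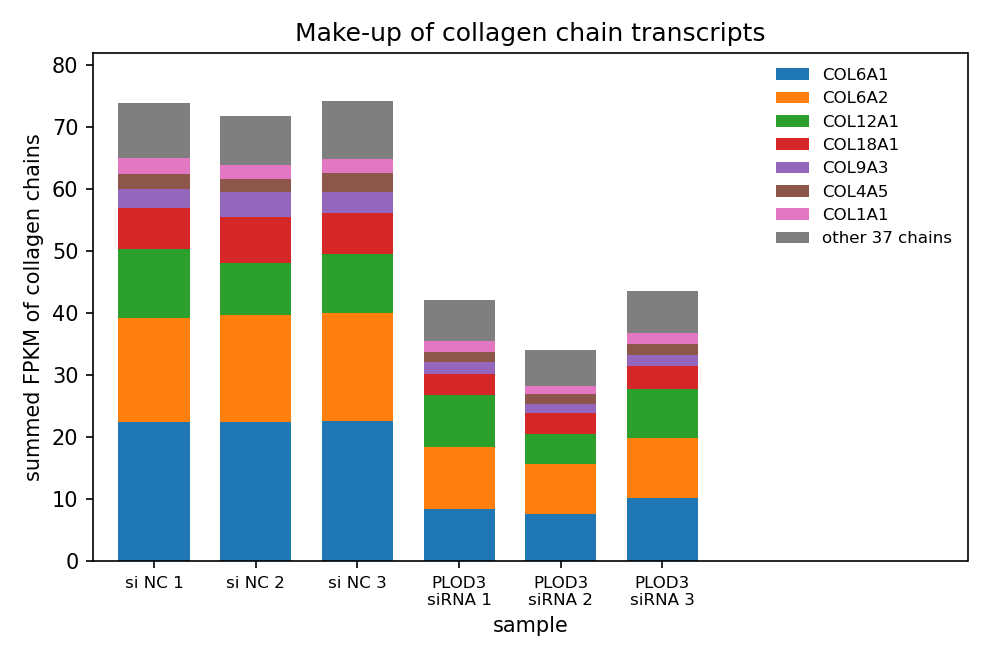
Summed FPKM of the 44 collagen chains in each sample (linear axis from 0), stacked by chain. The 3 si NC bars reach 71.8 to 74.2 and the 3 PLOD3 siRNA bars 34.0 to 43.6, and COL6A1 with COL6A2 forms the lower part of every bar.

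COL18A1 (chr21:45405165-45513720, plus strand), a multiplexin of basement membranes whose C-terminal part is released as endostatin, had an FPKM of 6.54, 7.34 and 6.62 in si NC and of 3.44, 3.26 and 3.63 in PLOD3 siRNA. Every PLOD3 siRNA sample was below every si NC sample. With the GC correction the log2 fold change was -0.57 (edgeR adjusted p = 0.0035), against -0.98 ± 0.0835 without it (adjusted p = 0.002). COL18A1 lies in the same region as COL6A1 and COL6A2 near the end of chromosome 21, ending at 45513720 where COL6A1 starts at 45981769. From the start of COL18A1 to the end of COL6A2, 4 genes were tested and these 3 chains were called lower. The fourth, SLC19A1, a folate carrier that overlaps COL18A1 on the opposite strand, had a mean FPKM of 2.93 in si NC against 2.70 in PLOD3 siRNA (log2 fold change -0.11, adjusted p = 0.591). Over chromosome 21 as a whole, 20 of 125 tested genes (16%) were lower. Because the interval was bounded by called chains, its count cannot be compared with this share.

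The 2 expressed FACIT chains differed in their spread. COL9A3 (chr20:62816244-62841159, plus strand), a chain of type IX collagen, had an FPKM of 3.11, 4.04 and 3.48 in si NC and of 1.85, 1.55 and 1.73 in PLOD3 siRNA. The groups were apart, with a log2 fold change of -1.04 ± 0.136 (edgeR, SE, adjusted p = 0.00385) and, with the GC correction, of -0.62 (adjusted p = 0.0104). Its usual partners were present at lower levels or not detected, with COL9A2 at 0.907 in si NC and 0.573 in PLOD3 siRNA and COL9A1 at 0. The span of COL9A3 overlaps that of TCFL5 on the opposite strand (mean FPKM 5.04 and 4.45, edgeR adjusted p = 0.147). No strand setting is given for the counting and overlap of exons was not tested. Whether reads of TCFL5 were counted for COL9A3 is therefore not known.

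COL12A1 (chr6:75084326-75206053, minus strand), which sits on type I fibrils, had an FPKM of 11.1, 8.43 and 9.48 in si NC and of 8.43, 4.85 and 7.90 in PLOD3 siRNA. The groups overlapped, with PLOD3 siRNA replicate 2 the lowest. Its mean was 9.66 ± 1.34 in si NC against 7.06 ± 1.93 in PLOD3 siRNA (SD, n = 3), and the log2 fold change of -0.45 ± 0.196 missed the threshold (edgeR adjusted p = 0.116). With the GC correction the value was -0.53 (adjusted p = 0.0709).

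COL1A1 (chr17:50184101-50201632, minus strand), the main chain of type I collagen, had an FPKM of 2.45, 2.38 and 2.22 in si NC and of 1.81, 1.38 and 1.76 in PLOD3 siRNA. The groups did not overlap, and the log2 fold change was -0.50 ± 0.110 (edgeR, SE, adjusted p = 0.0158). The call was lost with the GC correction, at -0.22 (adjusted p = 0.141), and with GC and length together, at -0.07 (adjusted p = 0.553). It was also lost with limma on log2(TPM + 1) (adjusted p = 0.0839).

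Of the 6 type IV chains, 4 were tested in the fit with the limit of 0.1. All 4 were called lower, beside 12.4% of all genes in that fit. The calls of COL4A5, COL4A4 and COL4A3 were lost when single samples were left out. The 6 type IV genes lie in 3 pairs that share a start region and are read in opposite directions, and they encode the chains of the basement membrane network. The pair COL4A1 and COL4A2 was near 0. The stretches between the starts of the other pairs are shown because both genes of each pair fell in the fit with the limit of 0.1. They are printed for the plus strand of GRCh38, and only the part that is free of annotated exons and within 250 bases of the start of COL4A3 or COL4A5 is given.
COL4A4-COL4A3: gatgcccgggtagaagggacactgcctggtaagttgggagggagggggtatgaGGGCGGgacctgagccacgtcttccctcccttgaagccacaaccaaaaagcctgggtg
COL4A6-COL4A5: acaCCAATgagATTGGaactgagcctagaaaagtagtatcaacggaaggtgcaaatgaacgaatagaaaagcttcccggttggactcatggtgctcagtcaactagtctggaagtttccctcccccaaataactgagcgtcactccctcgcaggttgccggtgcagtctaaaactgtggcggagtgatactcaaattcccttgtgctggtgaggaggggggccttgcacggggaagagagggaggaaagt
The first spans chr2:227164454-227164564, 111 of the 170 bases between the 2 starts, and its capitals mark the 1 match to GGGCGG. The second spans chrX:108439588-108439837, 250 of the 340 bases between the starts, and its capitals mark the matches to CCAAT, 1 on each strand. All motifs were searched on both strands, and no motif overlapped another. GGGCGG was present in 32.9% of 35116 RefSeq promoters (GRCh38.p14) over the 111 bases next to the start and in 42.6% over 250 bases. CCAAT was present in 19.5% and 32.0% at those lengths. TATAAA, which matched in neither interval, was present in 5.35% and 10.7%.

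COL4A5 (chrX:108439838-108697545, plus strand) had an FPKM of 2.49, 2.07 and 3.02 in si NC and of 1.69, 1.55 and 1.91 in PLOD3 siRNA. The lowest si NC sample lay just above the highest PLOD3 siRNA sample. The log2 fold change was -0.55 ± 0.149 (edgeR, SE, adjusted p = 0.03), and -0.52 (adjusted p = 0.0463) with the GC correction. When each sample was left out in turn, the log2 fold change stayed between -0.67 and -0.39, but the call was not stable. It held without si NC replicate 2 (edgeR adjusted p = 0.0227) or PLOD3 siRNA replicate 3 (0.0455). It was lost without si NC replicate 1 (0.0565), si NC replicate 3 (0.0716), PLOD3 siRNA replicate 1 (0.0853) or PLOD3 siRNA replicate 2 (0.0897). It was also lost with limma on log2(FPKM + 1) (adjusted p = 0.0513) or log2(TPM + 1) (0.0886), with no filter (0.0504) and with the correction for GC and length (0.102). A Y RNA gene on the opposite strand within COL4A5 had a mean FPKM of 0.541 in si NC against 0.533 in PLOD3 siRNA.

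COL4A6 (chrX:108155607-108439497, minus strand), the neighbour of COL4A5, had an FPKM of 0.617, 0.473 and 0.587 in si NC and of 0.297, 0.215 and 0.301 in PLOD3 siRNA. The groups were well apart, with a log2 fold change of -1.02 ± 0.177 (edgeR, SE, adjusted p = 0.0109) and, with the GC correction, of -0.90 (adjusted p = 0.0187). Its call was lost with limma on log2(TPM + 1) (adjusted p = 0.052). The ratio of COL4A5 to COL4A6 was 4.52 in si NC against 6.41 in PLOD3 siRNA, with an exact permutation p of 0.1.

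COL4A4 (chr2:227002714-227164453, minus strand) had an FPKM of 1.28, 1.11 and 1.17 in si NC and of 0.916, 0.675 and 0.824 in PLOD3 siRNA. COL4A3 (chr2:227164624-227314792, plus strand) had an FPKM of 0.990, 0.605 and 0.817 in si NC and of 0.490, 0.470 and 0.460 in PLOD3 siRNA. For both genes the groups did not overlap. The log2 fold changes were -0.54 ± 0.128 for COL4A4 (edgeR, SE, adjusted p = 0.027) and -0.74 ± 0.184 for COL4A3 (adjusted p = 0.0326), and with the GC correction -0.55 (adjusted p = 0.0219) and -0.74 (adjusted p = 0.0392). Each call was lost on leaving out any of 5 samples: COL4A4 kept it without PLOD3 siRNA replicate 1 (adjusted p = 0.0432) and COL4A3 without si NC replicate 2 (adjusted p = 0.0205), and without the others the adjusted p ran from 0.0541 to 0.0798 and from 0.0763 to 0.0963. Both calls were also lost with the correction for GC and length (0.0504 and 0.0838) and in the 3 limma fits (0.0608 to 0.135 and 0.0721 to 0.126), and that of COL4A3 with the replicate number as a block (0.0701). The ratio of COL4A4 to COL4A3 was 1.52 and 1.70 (exact permutation p = 0.4).

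**Figure D2:**
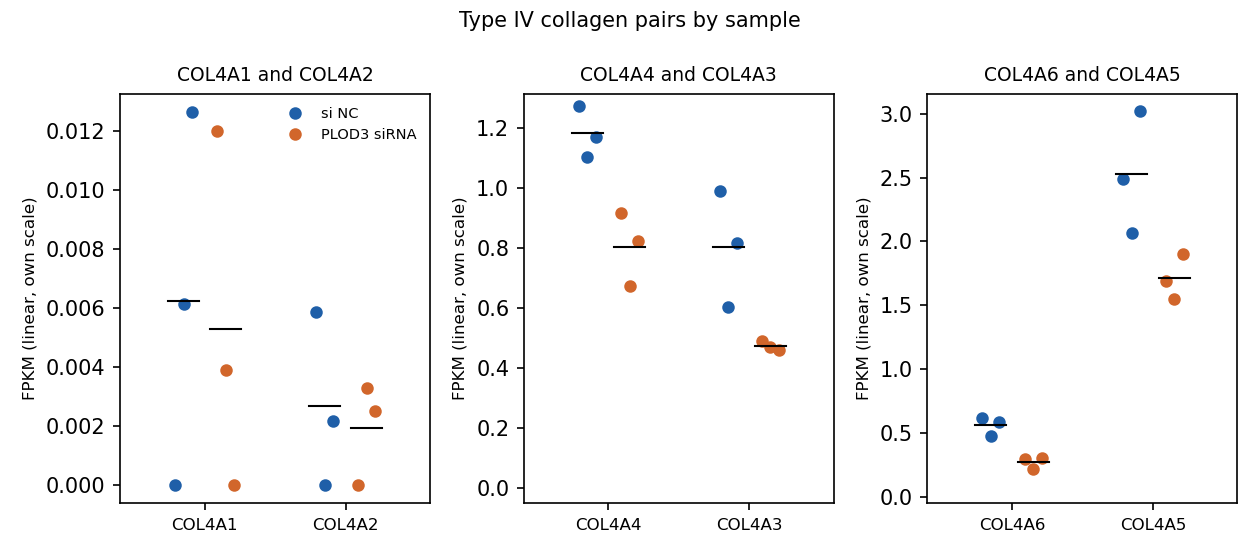
FPKM (linear, each panel on its own scale) of the 3 divergent type IV gene pairs by sample, with short lines at the group means. COL4A1 and COL4A2 stay near 0 in both groups, while for COL4A4, COL4A3, COL4A6 and COL4A5 every PLOD3 siRNA sample (orange) lies below every si NC sample (blue).

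The remaining chains between 0.1 and 1 were tested in the fit with the lower limit. Here 12 of 20 chains were called lower and 0 higher, against 12.4% lower and 9.41% higher among 19839 genes. DESeq2 also called 0 higher, and 0 chains were higher at an unadjusted p under 0.05 in edgeR without the GC correction. The median log2 fold change was -0.69, against 0.01 over all genes tested. COL3A1 and COL26A1 reached 0.1 only through the si NC samples, and without them the count was 11 of 18. With the GC correction 8 of 20 were lower and 0 higher, against 8.3% and 5.9% of all genes, and without COL3A1 and COL26A1 7 of 18 were lower. In that fit 1 chain, COL11A2, was higher at an unadjusted p under 0.05 (edgeR adjusted p = 0.0894). With a correction for GC and length together 6 were lower and 1 higher, against 5.96% and 7.12%. Without COL3A1 and COL26A1, 5 of 18 were lower and 1 higher with that correction. Limma called 7 of the 20 lower on log2(FPKM + 1), 6 on log2(FPKM + 0.1) and 4 on log2(TPM + 1), the last being COL6A1, COL6A2, COL18A1 and COL9A3. The share of all genes called lower was not counted for these limma fits, so their counts cannot be set against a background. Of all called genes 60.1% were higher with log2(TPM + 1), against 43.1% in edgeR.

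Both transmembrane chains that reached 0.1 were called lower, beside 12.4% of all genes in that fit. COL17A1, a component of hemidesmosomes that anchors epithelial cells, had a mean FPKM of 0.738 in si NC and 0.433 in PLOD3 siRNA (log2 fold change -0.75, edgeR adjusted p = 0.033). COL13A1, found at cell adhesion sites, had 0.556 and 0.315 (log2 fold change -0.79, adjusted p = 0.0178). The GC correction ended both calls, at adjusted p = 0.0911 and 0.051. COL17A1 also lost its call in the 3 limma fits (0.0682 to 0.111) and COL13A1 on log2(FPKM + 0.1) and log2(TPM + 1) (0.0531 and 0.0772). COL17A1 was called only when si NC replicate 2 was left out (adjusted p = 0.0205), with 0.0811 to 0.107 without any other sample. COL13A1 lost its call without PLOD3 siRNA replicate 1 (adjusted p = 0.0631), si NC replicate 2 (0.0514) or si NC replicate 3 (0.0583).

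COL3A1, a fibrillar chain typical of soft connective tissue, had the lowest fold change of the 20 chains, on few reads. Its counts were 59, 144 and 212 in si NC against 35, 28 and 26 in PLOD3 siRNA, and its FPKM was 0.128, 0.278 and 0.348 against 0.0608, 0.0626 and 0.0590. The PLOD3 siRNA samples were level while the si NC samples spread widely. The log2 fold change was -2.04 ± 0.402 (edgeR, SE, adjusted p = 0.0159), and the call was lost without si NC replicate 3 (adjusted p = 0.0537) or PLOD3 siRNA replicate 1 (adjusted p = 0.0575). It was also lost in the 3 limma fits (0.0688 to 0.0845).

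The other 7 low chains missed the threshold in edgeR. COL9A2 had a log2 fold change of -0.64 (edgeR adjusted p = 0.0802), and DESeq2 called it lower (adjusted p = 0.0463). COL5A2, a partner in type V fibrils, had a mean FPKM of 0.786 and 0.659, COL27A1 0.909 and 0.853, COL7A1, the chain of the anchoring fibrils of the skin, 0.501 and 0.453, and COL16A1 0.235 and 0.222, in si NC and PLOD3 siRNA. COL11A2 was the only chain of the 20 with a positive value, at 0.897 and 1.02 (log2 fold change 0.20, adjusted p = 0.42), and it was called higher with the correction for GC and length (0.65, adjusted p = 0.04). COL27A1, COL7A1 and COL16A1 also had positive values with the GC correction, none past the threshold. COL26A1 had 0.177 and 0.0884 (adjusted p = 0.259), and without PLOD3 siRNA replicate 3 it was called lower (log2 fold change -1.85, adjusted p = 0.0345).

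**Figure D3:**
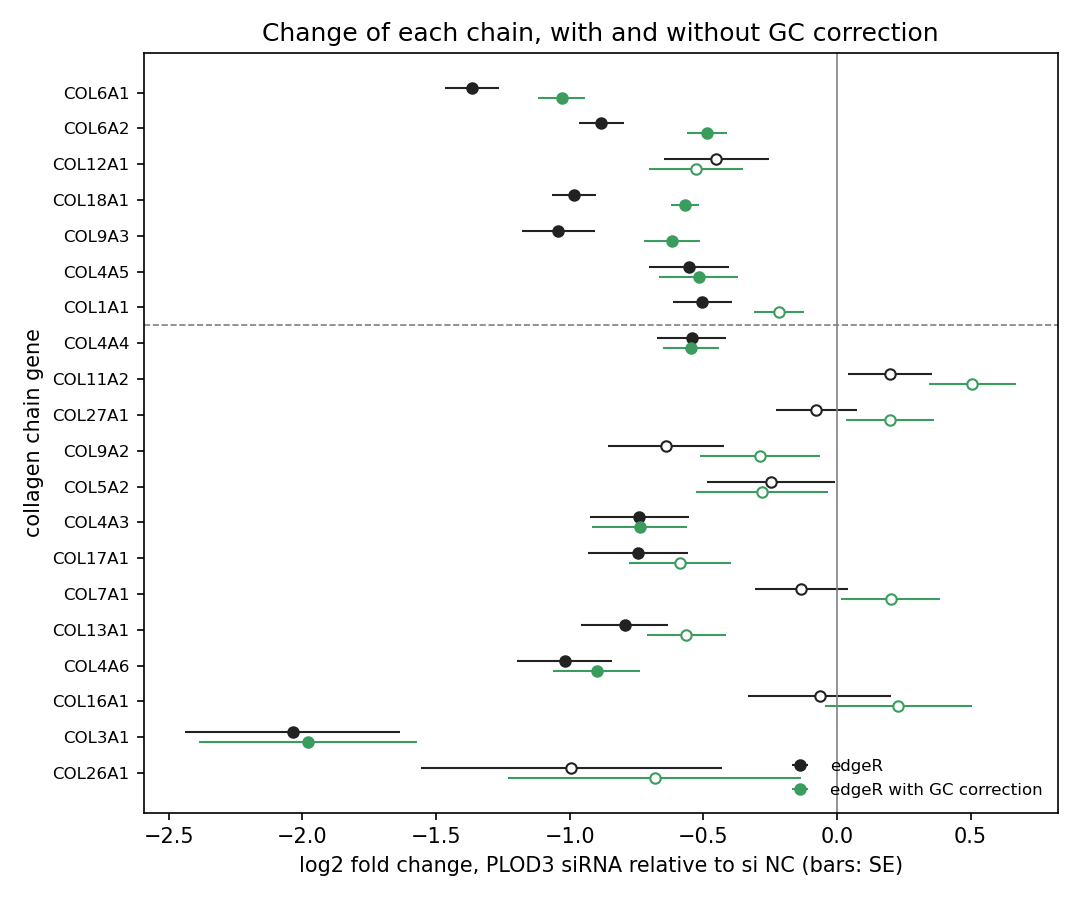
Log2 fold change of PLOD3 siRNA relative to si NC with its SE for the 20 chains, from edgeR without (black) and with (green) the GC correction, with filled points past an adjusted p of 0.05. Of the 7 chains above the dashed line (mean FPKM of at least 1), 6 are filled in black and 5 in green.

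Collagen transcripts are rich in G and C, and the change of all genes moved with GC content. Transcripts of the 7 expressed chains had a median GC content of 63.5% (46.3% to 67.4%), against 49.1% for all tested genes. The median log2 fold change of tested genes was 0.28 in the band under 40% GC and -0.39 in the band of 65% or more, where 41.7% of genes were called lower. COL6A1, at -1.37, shared its band (60% to 65%) with genes whose median was -0.33 and of which 40.3% were lower. COL6A2, COL18A1 and COL9A3 lay in the band of 65% or more and COL1A1 in that of COL6A1. COL12A1, in a band with a median of 0.07 (13.9% lower), and COL4A5, in a band with a median of -0.08 (22.7% lower), are poorer in G and C, and their values changed little with the correction.

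**Figure D4:**
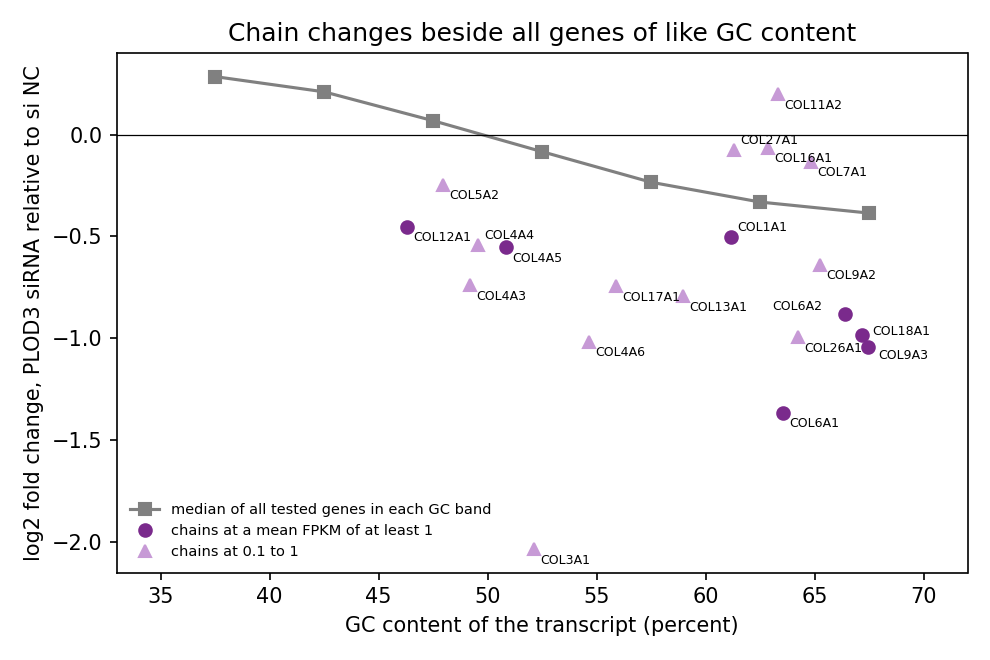
Log2 fold change of each chain against the GC content of its transcript (circles, mean FPKM of at least 1; triangles, 0.1 to 1), with squares for the median of all tested genes in each GC band. The median runs from 0.28 to -0.39 from the lowest to the highest band, and all 7 circles lie below it.

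Genes that modify, process, join or bind collagen were measured beside the chains. Of 95 such genes, 37 had a mean FPKM of at least 1, of which 19 were lower and 2 higher, beside 19.3% lower and 16.2% higher among all 12000 genes. Their median log2 fold change was -0.37, against 0.0034. TGM2, FN1 and EMID1 reached that limit only through si NC, and without them 16 of 34 were lower. PLOD3, the target of the siRNA, is among the lower genes in each of these counts, also with the GC correction, and is in the median. With the GC correction, 11 of 37 were lower and 2 (PPIB and SERPINH1) higher, beside 14.5% and 11.5% of all genes. Without TGM2, FN1 and EMID1, 9 of 34 were lower and 2 higher with that correction. The lists below hold 2 to 18 tested genes, and their counts are to be read against these shares. The values below are mean FPKM in si NC and PLOD3 siRNA, with edgeR's quasi-likelihood test.

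Among 18 tested genes of chain modification and folding, 5 were lower and 2 higher, counts not far from the shares of all genes. The 5 include PLOD3, the target of the siRNA. PLOD1, the lysyl hydroxylase of helical lysines, fell from 38.6 ± 1.48 to 28.5 ± 2.58 (SD, n = 3; adjusted p = 0.00933). P3H1 and CRTAP, partners in prolyl 3-hydroxylation, fell from 4.73 to 3.43 (adjusted p = 0.0162) and from 19.0 to 15.2 (adjusted p = 0.0198), and FKBP10, a prolyl isomerase, from 8.69 to 5.63 (adjusted p = 0.0308). P4HA1, a catalytic subunit of prolyl 4-hydroxylase, rose from 9.90 to 15.4 (adjusted p = 0.0182), and PPIB, a prolyl isomerase, from 207 to 248 (adjusted p = 0.0396). Of these, CRTAP, PPIB and PLOD3 were also called with the GC correction, which in addition called the isomerase FKBP14 lower (log2 fold change -0.57, adjusted p = 0.0102) and SERPINH1, the collagen chaperone HSP47, higher (0.74, adjusted p = 0.0339). P3H1 lost its call without PLOD3 siRNA replicate 1 or si NC replicate 3 (adjusted p = 0.0559 and 0.0592), and CRTAP without PLOD3 siRNA replicate 1, si NC replicate 2 or si NC replicate 3 (0.0746, 0.0504 and 0.0719). FKBP10 was called only when si NC replicate 3 was left out (adjusted p = 0.0185, otherwise 0.0557 to 0.0848) and PPIB only without PLOD3 siRNA replicate 3 (0.033, otherwise 0.0657 to 0.104).

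All 4 tested crosslinking genes were lower, beside 19.3% of all genes, and 3 of them were at or above the limit in both groups. LOXL2, a lysyl oxidase, fell from 7.17 ± 0.371 to 2.66 ± 0.321 and LOXL1 from 2.75 ± 0.252 to 1.51 ± 0.344 (adjusted p = 0.00149 and 0.0134). PXDN, the peroxidase that joins type IV networks by sulfilimine bonds, fell from 2.73 ± 0.0962 to 1.06 ± 0.259 (adjusted p = 0.00333). TGM2, a transglutaminase that reached the limit only through si NC, fell from 3.22 to 0.827 (adjusted p = 0.000436). LOXL1 alone of these lost its call with the GC correction (adjusted p = 0.0735).

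Of 4 tested propeptide processing genes, FURIN, a proprotein convertase, fell from 16.5 to 9.68 (adjusted p = 0.00328) and BMP1, the procollagen C-proteinase, from 5.92 to 4.26 (adjusted p = 0.015, and 0.231 with the GC correction). PCOLCE2, an enhancer of that proteinase, had 1.95 and 2.96 (adjusted p = 0.0592). Of 4 tested receptors, MRC2, which takes up collagen, fell from 3.72 to 1.17 (adjusted p = 0.00182) and DDR1, a collagen receptor kinase, from 12.9 to 7.69 (adjusted p = 0.0164). The DDR1 call was lost with the GC correction (adjusted p = 0.107) and without PLOD3 siRNA replicate 2 (0.0549). ITGB1, the beta subunit of the collagen-binding integrins, had 55.9 and 64.3 (adjusted p = 0.469).

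Of 2 tested collagenases, MMP14, a membrane-bound protease, fell from 4.57 to 3.21 (adjusted p = 0.0231), and CTSK, cathepsin K, had 2.17 and 1.87 (adjusted p = 0.32). The MMP14 call held only without si NC replicate 1 (adjusted p = 0.0119) or PLOD3 siRNA replicate 3 (0.0496), with 0.0649 to 0.079 without any other sample, and was lost with the GC correction (0.134). Both tested matrix partners were lower, beside 19.3% of all genes. Perlecan (HSPG2) fell from 3.42 to 1.39 (edgeR adjusted p = 0.00182). Fibronectin (FN1), which reached the limit only through si NC, fell from 1.89 to 0.682 (edgeR adjusted p = 0.0022). All 3 tested proteins that carry a collagen domain without being chains were lower, beside 19.3% of all genes. SCARA3 fell from 9.24 to 6.99 (edgeR adjusted p = 0.00909) and CTHRC1 from 2.36 to 1.57 (0.0267). EMID1, at the limit only through si NC, fell from 1.69 to 0.901 (0.0126). SCARA3 and EMID1 lost the call with the GC correction (0.138 and 0.077), and CTHRC1 lost it on leaving out any sample but si NC replicate 3 (0.0594 to 0.0758).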

How the data were processed

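Whole-transcriptome RNA-seq of 3 si NC and 3 PLOD3 siRNA samples was used, grouped by the sample titles. The authors deposited 1 table with an FPKM and an estimated count per gene and sample, per the file headers. The deposited FPKM are scaled to each library, with 0.0001 written where the count was 0 (read here as 0). The deposited estimated counts are whole numbers that were not normalized. Per the submitters' processing notes, cutadapt 1.9, HISAT2 2.0.4 and StringTie 1.3.4d were used. Anything on build, annotation, strand setting or counting method is not given in the sources used here. Low counts piled up at 4 (on average 1490 genes per sample, against 558 at 3 and 312 at 5), so about 4 units were taken as 1 read pair, and the counts overstate the depth.

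The collagen chains, the other gene lists and the tests were chosen with earlier results of these data known. Counts were scaled by TMM and tested with edgeR 4.0.16 (R 4.3.3), quasi-likelihood, over the 12000 genes whose mean FPKM was 1 or more, with all 6 samples and no covariate. Chains under that limit were tested with a limit of 0.1 (19839 genes). For the GC correction, an offset came from a loess trend (span 0.5) on transcript GC content in each sample. Alternatives were DESeq2 1.42.0, limma 3.58.1 on log2(FPKM + 1), log2(FPKM + 0.1) and log2(TPM + 1), library totals, counts divided by 4, other limits, GC with length, the replicate number as a block and each sample left out. Of the 60612 genes, 58394 matched GENCODE 29 by identifier, and coordinates in the table were taken to be GRCh38. Named were all chains, PLOD3, up to 3 tested members of each collagen list by smallest p, and the called members of any count of 5 or fewer in the reported fit. Levels are mean ± SD, and the fold changes are PLOD3 siRNA relative to si NC.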

Additional observations from a re-analysis of the deposited data

How the results depend on the processing

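The log2 fold changes of the 7 expressed chains were negative in all 130 combinations of chain and alternative, and 116 kept their side of the threshold. COL6A1, COL6A2, COL18A1 and COL9A3 were called lower in every alternative to the fit with the limit of 1 in which they were tested. Over all chains, 286 of 351 combinations kept their side, 60 lost a call, 5 gained one and 0 reversed. Apart from running with no filter, the alternatives to the fit with the limit of 0.1 were chosen after seeing the data. Among them, the share of all genes called was counted only for the GC correction and for GC with length. The causes of the shifts below were not tested, except that a stricter limit tests fewer genes and leaving out a sample leaves fewer samples.

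Against 2319 genes lower and 1945 higher, the counts were 1461 lower with log2(TPM + 1), 1478 lower with GC and length, 1354 and 1192 with a mean FPKM of at least 5, and 1509 to 2011 and 1083 to 1651 without each sample. Of called genes 45.6% were higher, and 62.8% with log2(TPM + 1). Against 6 chains lower, 12 were lower with a limit of 0.1, 3 with 5 (COL6A1, COL6A2 and COL18A1), 11 with no filter, and 5 to 6 without each sample. With no filter 2043 of all genes were lower. At the limit of 1, 5 chains were lower with log2(FPKM + 1) and 5 with the GC correction. The count was 4 with log2(TPM + 1) and 4 with GC and length, in both fits COL6A1, COL6A2, COL18A1 and COL9A3. Against 7 expressed chains, 14 had a mean FPKM of at least 0.5 and 17 a mean TPM of at least 1. With the limit of 0.1, 12 chains were lower; limma gave 7 on log2(FPKM + 1), 6 on log2(FPKM + 0.1) and 4 on log2(TPM + 1), GC with length gave 6 lower and 1 higher (COL11A2), and leaving out each sample gave 5 to 9. Against 19 collagen pathway genes lower and 2 higher, GC gave 11 lower, GC with length 10 lower and 4 higher (ADAMTS14, COLGALT1, PPIB and SERPINH1), a limit of 5 gave 8 lower, DESeq2 and log2(TPM + 1) gave 4 higher (P4HA1, PCOLCE2, PPIB and SERPINH1), a limit of 0.1 and no filter gave 1 higher (P4HA1), and leaving out each sample gave 14 to 18 lower and 1 to 2 higher.

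Samples with the same replicate number did not deviate together (correlations of 0.0485, -0.0105 and -0.0226), so the numbers were not taken as pairs. With the replicate block, 1834 genes were lower and 1471 higher, all 7 expressed chains were lower (COL12A1 at adjusted p = 0.0486), 9 chains were lower with the limit of 0.1, and 17 pathway genes were lower and 1 (P4HA1) higher. With the block and the GC correction, 1265 genes were lower and 984 higher, 6 chains were lower, 4 with the limit of 0.1 (COL6A1, COL6A2, COL18A1 and COL4A6, with COL9A3 not called), and 11 pathway genes were lower and 2 higher.

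With 3 samples a group, an exact permutation test cannot go below 0.1. The 24 chains under a mean FPKM of 0.1 rest on too few reads for a comparison.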
